A study of Mus musculus with 16 samples.

Results

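The genes described here are best known from astrocytes, the star-shaped glia of the brain, and were followed in mouse spleen. They were chosen by symbol and are 9 of the 54838 genes in the deposited count table: Slc1a2, Slc1a3, Glul, Aqp4, Aldh1l1, Aldoc, Gja1, Gjb6 and Apoe. Between cells retained by a strainer and whole spleen, 6 of the 9 were called higher in the retained cells, as were 37.5% of all genes tested, 1 (Aldoc) was lower in 7 of 8 pairs by a margin that depended on the processing, and 2 (Aqp4 and Gjb6) were at or near the limit of detection. The largest difference was that of Gja1, the connexin 43 gene, at 32.4-fold, and the most abundant member in both groups was Apoe, the gene of apolipoprotein E.

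The study compared 16 RNA samples of spleen from C57BL/6 mice, 8 size-selected and 8 whole spleen, to find genes enriched in spleen glia, the cells that ensheath the nerve fibres of the organ. Each of 8 numbers has 1 sample of either kind; 407, 408, 427 and 435 are labelled male and 436, 445, 447 and 460 female. For the size-selected samples, spleens were minced and digested with Dispase II among other reagents, red blood cells were lysed, and the cells that stayed on a strainer were taken up in lysis buffer; the labels call this source spleen glia. The whole spleen samples carry the same protocol text, so how they were prepared is not described, and no age, transgene or treatment is given for either group. Nothing in the labels says that the numbers are separate animals, so the p-values below measure the spread between these samples only.

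Astrocytes take up glutamate from around synapses through the transporters encoded by Slc1a2 and Slc1a3 and convert it to glutamine with glutamine synthetase, the product of Glul. They move water through aquaporin 4, are joined to one another by the connexins of Gja1 and Gjb6, and release lipid on apolipoprotein E particles. Peripheral glia, which include Schwann cells and the glia of visceral nerves, share part of this programme, and so do cells that are not glia. As background, Slc1a2, Aqp4, Aldh1l1 and Gjb6 are the more astrocyte-like members, although epithelia, liver, muscle or skin also use some of them. Slc1a3, Glul and Aldoc are astrocyte genes with wide expression elsewhere. Gja1 is also a gene of fibroblasts, endothelium and smooth muscle, and Apoe and Glul are also genes of macrophages.

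Gja1, the member that differed most, and Apoe, the most abundant, are shown here by the 250 bases before their annotated starts, since the 2 genes also had the closest profiles of any pair of members among the size-selected samples (below). The windows are from RefSeq on GRCm38.p6, read 5′ to 3′ on the strand of the gene, at chr10:56377050-56377299 (plus strand) for Gja1 and chr7:19699189-19699438 (minus strand) for the first of 3 annotated Apoe starts. Neither window overlaps an annotated exon.
Gja1: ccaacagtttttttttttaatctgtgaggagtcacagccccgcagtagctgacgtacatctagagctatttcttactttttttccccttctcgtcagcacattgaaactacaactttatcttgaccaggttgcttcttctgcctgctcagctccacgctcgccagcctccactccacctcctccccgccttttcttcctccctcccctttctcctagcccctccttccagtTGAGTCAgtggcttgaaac
Apoe: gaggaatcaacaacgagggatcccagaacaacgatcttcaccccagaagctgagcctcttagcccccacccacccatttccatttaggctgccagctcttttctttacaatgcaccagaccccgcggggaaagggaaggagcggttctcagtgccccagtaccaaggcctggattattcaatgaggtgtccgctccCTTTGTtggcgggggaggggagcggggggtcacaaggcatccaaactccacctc
Capitals mark matches, searched on both strands, to the AP-1 motif TGANTCA in Gja1, 19 bases before the start, and to the SOX motif ACAAAG in Apoe, 54 bases before the start, where it lies on the opposite strand and so reads as its reverse complement. Of 32851 such windows, 6.75% hold the AP-1 letters and 16.5% the SOX letters. Windows were found for 8 of the 9 members. Other searches were for the GC box GGGCGG, present in 32.7% of all windows and in those of Slc1a3, Glul, Aldh1l1 and Aldoc, for TATAAA (12.4%), present in those of Slc1a3 and of the second Apoe start, and for the E-box CACGTG (6.02%), present in none of the members' windows. These matches describe letters and not binding.

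On GRCm38 the GENCODE M21 gene models lie on 9 different chromosomes, so no 2 members are neighbours. Slc1a2 is at chr2:102658659-102790784 (plus strand), Slc1a3 at chr15:8634124-8710764 (minus) and Glul at chr1:153899944-153909723 (plus). Aqp4 is at chr18:15389496-15410982 (minus), Aldh1l1 at chr6:90486427-90600203 (plus) and Aldoc at chr11:78322968-78327781 (plus). Gja1 is at chr10:56377330-56402513 (plus), Gjb6 at chr14:57123303-57133611 (minus) and Apoe at chr7:19696109-19699188 (minus). Counts cover whole genes, so exons and isoforms are not told apart.

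Levels below are CPM, the estimated counts as deposited over the library total, scaled between samples with TMM, a method that equalises the bulk of genes. A gene was called when the Benjamini-Hochberg adjusted p of edgeR's quasi-likelihood test over all 14510 genes that passed a count filter was under 0.05. Totals ran from 13119992 to 19944440 estimated counts in the size-selected samples and from 12153770 to 16282454 in whole spleen. In the size-selected columns, 3898 genes, 6 of the members among them, carry values that had been multiplied by 1 or more constants between 0.659 and 0.964 that no label or header mentions. Dividing by these constants gave restored counts, and the restored value is given beside each multiplied member. Whole spleen 427 and size-selected 435 stood apart: the summed CPM of 14 peripheral glia markers was highest in whole spleen 427 (26.0, in a range from 8.61), and that of 12 fibroblast markers lowest in size-selected 435 (1368, in a range up to 4627). Size-selected 435 also had the highest summed lymphocyte (2721) and erythroid markers (3513) of its group, and its part in the members' differences was not tested beyond leaving number 435 out, which changed no member's call.

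Of the 9 members, 7 passed the filter; 6 were called higher and 1 lower. Among all genes tested, 37.5% were called higher and 30.4% lower, 67.9% in all; the shares called in all were 68.0% with restored counts, 69.4% with the number as a block and 43.5% without the filter. In 5 members every size-selected sample exceeded every whole spleen sample, as it did in 23.3% of all genes tested. With restored counts this held for 6 members, Apoe being the addition, and for 23.5% of all genes. In bulk RNA, more cells of a type cannot be told apart from more RNA per cell.

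**Figure D1:**
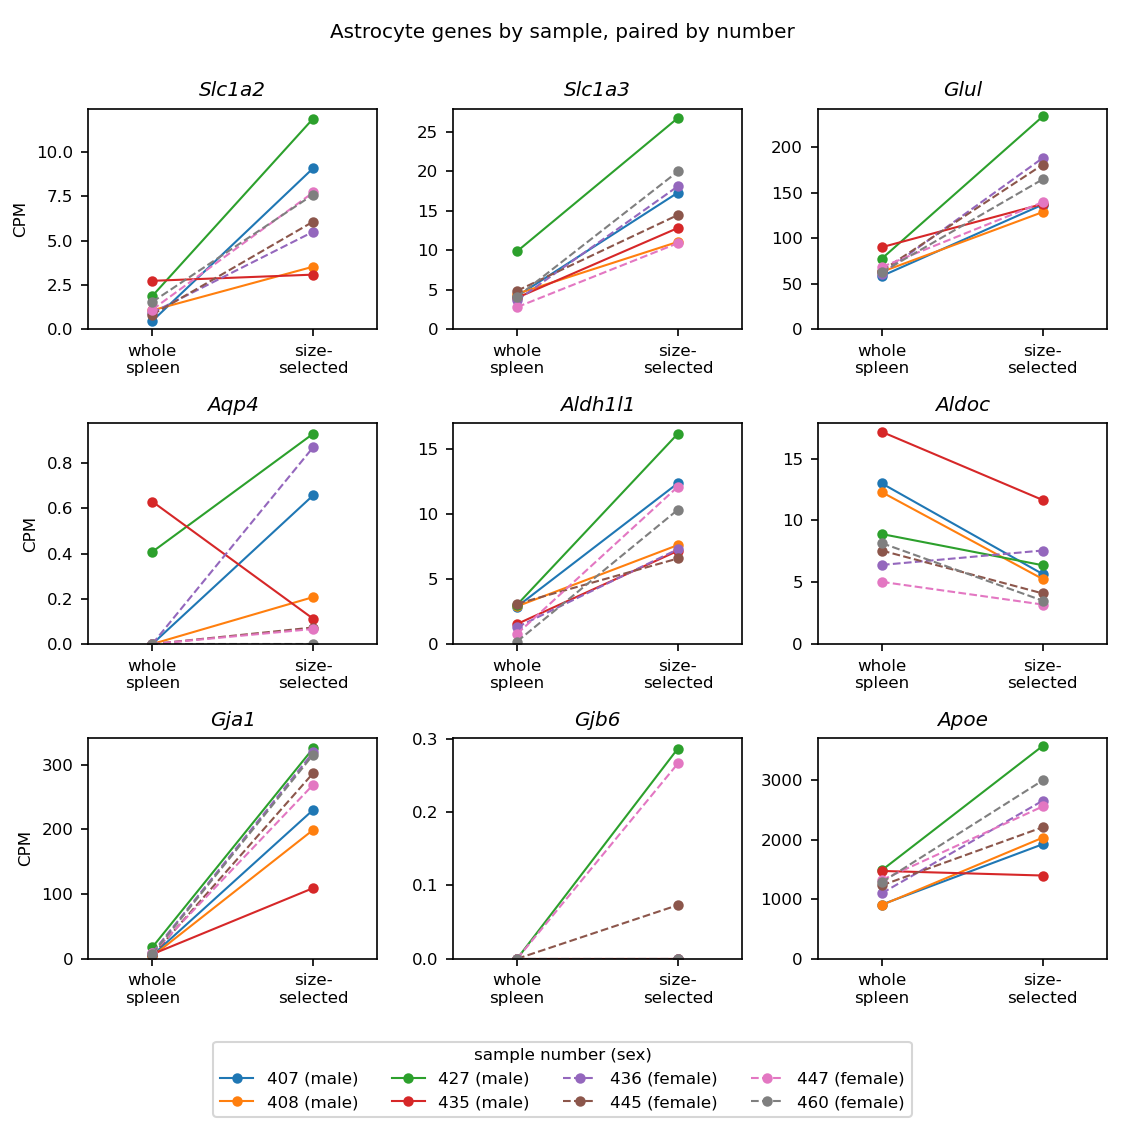
CPM of the 9 members in whole spleen (left) and size-selected samples (right) on linear axes from 0; each line joins the 2 samples of a number, solid for male and dashed for female. Slc1a2, Slc1a3, Glul, Aldh1l1 and Gja1 were higher in all 8 pairs, Apoe in 7 and Aldoc in 1.

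Slc1a2 encodes GLT-1, the main glutamate transporter of astrocytes. Its level ran from 3.08 to 11.9 CPM in the size-selected samples (median 6.83) and from 0.467 to 2.73 CPM in whole spleen (median 1.09). All size-selected samples lay above all whole spleen samples, with 435 bringing the groups close: there the size-selected value was 1.13 times the whole spleen value, against 19.5 times in 407. The difference was 2.36 ± 0.34 (SE) on the log2 scale, or 5.13-fold (edgeR adjusted p = 6.39e-06), and 2.60 with restored counts. Counts were low, from 6 to 39 in the whole spleen libraries, and since no source says whether strand was used in counting, reads of the overlapping antisense gene Gm13872 could be included.

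Slc1a3 encodes GLAST, a second glutamate transporter that radial glia and many peripheral cells also express. It ran from 10.9 to 26.8 CPM (median 15.9) in the size-selected samples and from 2.81 to 9.87 CPM (median 4.16) in whole spleen. The groups did not overlap, but whole spleen 427, at 9.87 CPM, stood well above the other whole spleen samples, of which the highest was 4.88 CPM. Slc1a3 was 3.46-fold higher after size selection (log2 1.79 ± 0.25 SE, edgeR adjusted p = 3.36e-06), and 2.03 on the log2 scale with restored counts. The ratio within a number ran from 2.46 in 408 to 4.94 in 436. The annotation places Gm37310 over part of Slc1a3 on the same strand.

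Glul, which encodes glutamine synthetase, ran from 128.8 to 233.9 CPM (median 152.2) in the size-selected samples and from 58.6 to 90.2 CPM (median 63.8) in whole spleen. No sample of one group reached the other. It was 2.40-fold higher (log2 1.26 ± 0.13 SE, edgeR adjusted p = 7.71e-08; restored 1.34), with within-number ratios from 1.53 in 435 to 3.08 in 436. Glul shares sequence with the antisense gene Teddm2 and with Mir8114 in the annotation.

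Other genes that handle glutamate and glutamine moved in both directions. Of 12 listed, 8 were tested and 4 were called higher, 3 lower; the median log2 difference was 0.30, beside 0.05 over all genes tested. Among the higher ones were Slc1a4, a transporter of small neutral amino acids (2.08), the glutamine carrier Slc38a2 (1.30) and the glutamate dehydrogenase Glud1 (0.37). Lower were Slc38a1 (−0.74), Gls2 (−0.97) and Slc38a5 (−1.49), the last lower in 8 of 8 pairs but not called with restored counts (edgeR adjusted p = 0.0803), unless the number was a block (adjusted p = 0.00202, edgeR). As deposited, Gls2 was not called without 436, 447 or 460 (edgeR adjusted p 0.0569 to 0.0725), nor Slc38a5 without 427 (edgeR adjusted p = 0.0515). Slc1a5, a glutamine transporter, was not called as deposited (0.23) and was called with restored counts (0.60). As deposited it was called without number 445 (0.34, edgeR adjusted p = 0.00716), but without no other number. Slc1a1, Slc1a6 and Slc1a7, the remaining glutamate transporters of the family, did not pass the filter. In the authors' deposited table Slc1a1 has a log2 fold change of 3.55.

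Aqp4, the water channel of astrocyte endfeet, was close to undetected. Its counts in the size-selected samples were 10, 3, 13, 2, 16, 1, 1 and 0 in the order of the numbers from 407 to 460, 46 in all. In whole spleen it had 5 counts in 427, 9 in 435 and 0 in the other 6 libraries, 14 in all. The groups overlapped, and Aqp4 did not pass the filter. In a fit without the filter the difference was 1.39 ± 0.98 (SE) on the log2 scale and was not called (edgeR adjusted p = 0.262), so no difference was detectable at this depth.

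Aquaporin 4 is held at the astrocyte endfoot by the dystrophin complex. All 7 listed genes of this complex were tested and all 7 were called higher, with a median log2 difference of 2.86. Among them were Dtna (dystrobrevin alpha, 6.09), Dmd (dystrophin, 4.31), Agrn (agrin, 4.16), Dag1 (dystroglycan, 2.45), Sntb1 (0.99) and Utrn (utrophin, 0.64). The complex is also one of muscle and other stroma: the 9 smooth muscle and pericyte markers were all called higher, their summed level running from 897.4 to 4248 CPM against 12.1 to 85.9 CPM. Their part in the rise of the complex was not tested. Of 9 other aquaporins 4 were tested: Aqp1, a channel of endothelium and red cells, was higher (1.96, restored 2.80), Aqp3 lower (−1.22), and Aqp9 (−0.76) and Aqp11 (−0.18) were not called; with the number as a replicate block Aqp9 was called lower (edgeR adjusted p = 0.043).

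Aldh1l1 encodes a folate enzyme that is widely used to mark astrocytes. It ran from 6.58 to 16.2 CPM in the size-selected samples (median 8.97) and from 0.193 to 3.09 CPM in whole spleen (median 2.21), without overlap. The difference was 2.35 ± 0.38 (SE) on the log2 scale, 5.09-fold (edgeR adjusted p = 2.45e-05), and its counts carried no constant. The whole spleen level itself varied widely, from 3 to 45 counts, so the ratio within a number ran from 2.13 in 445 to 53.6 in 460. Other annotated genes overlap it, antisense Gm15756 among them.

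Aldoc, the brain aldolase of glycolysis, was the member that went the other way. It ran from 3.19 to 11.7 CPM in the size-selected samples (median 5.46) and from 5.03 to 17.2 CPM in whole spleen (median 8.53). The groups overlapped, and the size-selected sample was lower in 7 of 8 pairs, 436 being the exception at 1.18 times. The difference was −0.73 ± 0.28 (SE) on the log2 scale (edgeR adjusted p = 0.0303). It was −0.49 with restored counts and then missed the threshold (adjusted p = 0.126, edgeR), as it did without number 407, 408, 445 or 460 and with library totals in place of TMM. With the number as a block the difference was called on both kinds of counts. It was −0.75 as deposited (edgeR adjusted p = 0.00317) and −0.51 with restored counts (edgeR adjusted p = 0.0246). Size-selected 435 and whole spleen 435 held the highest Aldoc level of their groups.

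Relatives of these 2 enzymes differed in both directions. Of 7 listed folate and aldolase genes 5 were tested: Shmt1 was called higher (0.51), Mthfd2 (−1.19) and Shmt2 (−0.52), both mitochondrial, lower, and Mthfd1 (0.16) and the general aldolase Aldoa (−0.08) were not called. Aldh1l2, the mitochondrial counterpart of Aldh1l1, did not pass the filter. It was higher in 8 of 8 pairs (0.944 against 0.0601 CPM on average) and was called in the fit without the filter (log2 3.72, edgeR adjusted p = 0.0011). All its whole spleen counts, 7 in number, were in 445, and the other whole spleen libraries were at 0, so the size of this difference rests on that library.

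Gja1 encodes connexin 43, which forms gap junctions between astrocytes and also between fibroblasts, endothelial cells and smooth muscle cells. It ran from 109.1 to 324.9 CPM in the size-selected samples (median 277.6) and from 3.81 to 17.8 CPM in whole spleen (median 7.13). The groups lay far apart, the lowest size-selected sample being 435 and the highest whole spleen sample 427. Gja1 was 32.4-fold higher (log2 5.02 ± 0.30 SE, edgeR adjusted p = 2.25e-10; restored 5.10), with ratios from 15.6 in 435 to 55.6 in 445. It is the only member in the authors' deposited table, where every gene has a log2 fold change of 3.5 or more, above the difference found here for any other member tested. That table gives a log2 fold change of 5.00 and mean TPM of 117.1 and 2.68.

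Gjb6, the connexin 30 gene of mature astrocytes, had 4 counts in size-selected 427, 1 in 445, 4 in 447 and 0 in the other 5, and 0 in all 8 whole spleen libraries. A count of 0 over the whole spleen group allows up to 3 counts, or 0.0256 CPM. Set against this limit, the size-selected mean of 0.0782 CPM gave a bound of 3.05-fold. The bound allows for counting error in the whole spleen zeros only and takes the size-selected mean, from 9 counts, as exact. Without size-selected 427 the mean was 0.0484 CPM and the bound, against the same limit, 1.89-fold. Gjb6 did not pass the filter. In the fit without it, Gjb6 was called at an edgeR adjusted p of 0.0385, but not with the number as a block (adjusted p = 0.195, edgeR).

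Among the other connexins, 6 of 18 were tested and 5 were called higher. Among them were Gja5 (6.78, and 7.34 without 427) and Gja4 (5.61), connexins of arterial endothelium, Gjc1 (5.13) of smooth muscle, and Gjc3, known from myelinating glia. Gjc3 was at 0 in all whole spleen libraries and at 3.12 ± 3.49 CPM (SD, n = 8) in the size-selected ones. Against the limit that 0 counts allow, its bound was 121.8-fold, with the size-selected mean again taken as exact. Without size-selected 436, the highest at 11.6 CPM, the mean was 1.91 CPM and the bound, against the same limit, 74.5-fold. The median log2 difference of the 6 was 6.08, with Gjc3 at its bound as well. Gjb2, connexin 26, the usual partner of Gjb6, was level (−0.04) and not called.

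Apoe, the lipid carrier made by astrocytes, macrophages and hepatocytes, ran from 1400 to 3579 CPM in the size-selected samples (median 2386) and from 903.5 to 1490 CPM in whole spleen (median 1261). The groups overlapped through number 435, whose size-selected value was 0.948 times its whole spleen value; the other 7 pairs were higher. Apoe was 1.99-fold higher (log2 0.99 ± 0.17 SE, edgeR adjusted p = 3.52e-05). It carries the strongest multiplication of the members, by 0.684 to 0.799, and with restored counts it was 2.59-fold higher (log2 1.37 ± 0.17 SE), in 8 of 8 pairs and without overlap.

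Of 14 genes of the apolipoprotein E pathway, 11 were tested, 7 were called higher and 2 lower, with a median log2 difference of 1.37. Among the higher ones were the carriers Apod (7.20) and Clu (3.88), the receptors Vldlr (5.32, and 6.37 without 427, which held most of its whole spleen counts), Lrp1 (2.05) and Lrp8 (1.37), and Apoc1 (0.92). Apoc2 (−1.03) and the cholesterol exporter Abcg1 (−0.33) were lower. Abca1, which loads lipid onto Apoe, was called higher only with restored counts (0.48, against 0.23 as deposited), and Trem2, a microglial receptor for Apoe, was not called (0.88). Clu is also in the list of follicular dendritic cell markers, of which 5 of 7 were called higher and 1 lower. Without number 427, 4 were called higher, as Fcgr2b lost its call (edgeR adjusted p = 0.0626).

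**Figure D2:**
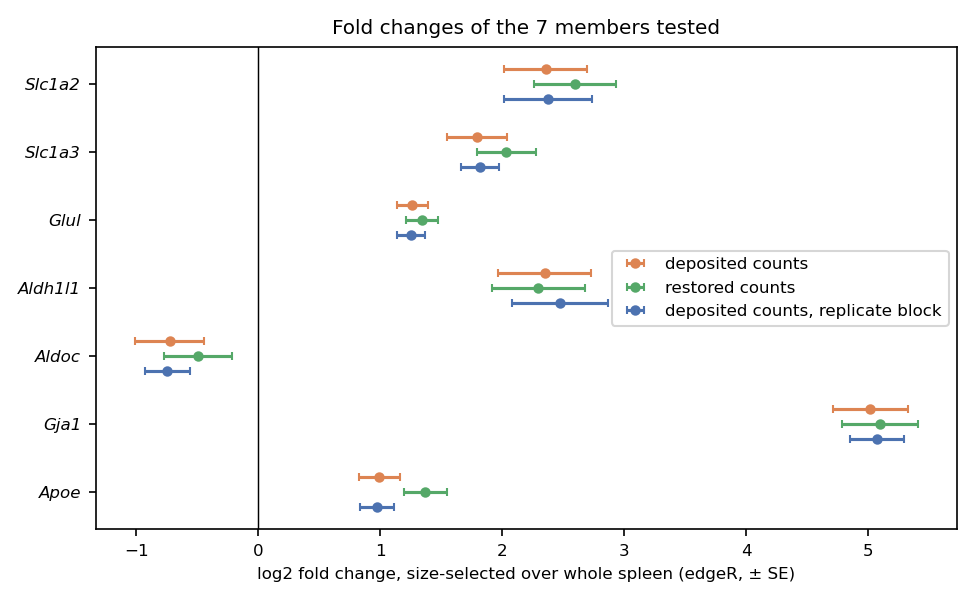
Log2 difference (size-selected over whole spleen, edgeR) of the 7 members tested, with bars of 1 SE, for deposited counts, restored counts and deposited counts with the number as a block. Gja1 stood at 5.02 and Aldoc, the only negative one, at −0.73, nearer 0 with restored counts.

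Beyond the members, other astrocyte genes were mostly higher. Of 32 listed, 22 were tested, 19 were called higher and 1 lower, with a median log2 difference of 5.18; 2 of the 32 (S100b and Fabp7) are also in the peripheral glia list. Those with large differences included Fabp7 (7.87), a fatty acid carrier of glial precursors, Gpr37l1 (7.06) and S100b (6.45). Their whole spleen means rested largely on 1 library, and without that number the differences were 8.74 for Fabp7 and 8.05 for Gpr37l1 (both without 427) and 8.14 for S100b (without 435). Chrdl1 (7.29) had whole spleen counts, 10 of them, in 427 alone. Ppp1r3c, a glycogen regulator, had 647 counts over the size-selected libraries and 1 over the whole spleen libraries, so the size of its difference was poorly fixed: the log2 ratio of its pooled counts was 9.13, with an exact 95% interval from 6.64 to 14.43 that covers counting error only. The transcription factors Id4 (6.31) and Sox9 (5.16) and the cytoplasmic protein Ndrg2 (4.52) were also higher. Gfap, the intermediate filament by which astrocytes are usually stained, was at 2.40 ± 3.06 CPM (SD, n = 8) against 0.519 ± 0.597, and was higher in only 5 of 8 pairs. Size-selected 436 held 9.52 CPM, and without it the mean was 1.39 CPM. The difference (2.21) was called as deposited, but not without number 436 (1.22, edgeR adjusted p = 0.136) or 460 (2.09, edgeR adjusted p = 0.0503), nor with the number as a block (edgeR adjusted p = 0.0933). Kcnj10 (−0.56), the potassium channel of astrocytes, and the urea transporter Slc14a1 (−0.48) were not called, though Slc14a1 was called lower with restored counts (−0.53, edgeR adjusted p = 0.0474), and Cldn10 (−1.28) was lower. Slc6a11, a GABA transporter of astrocytes, had 0 counts in every library.

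**Figure D3:**
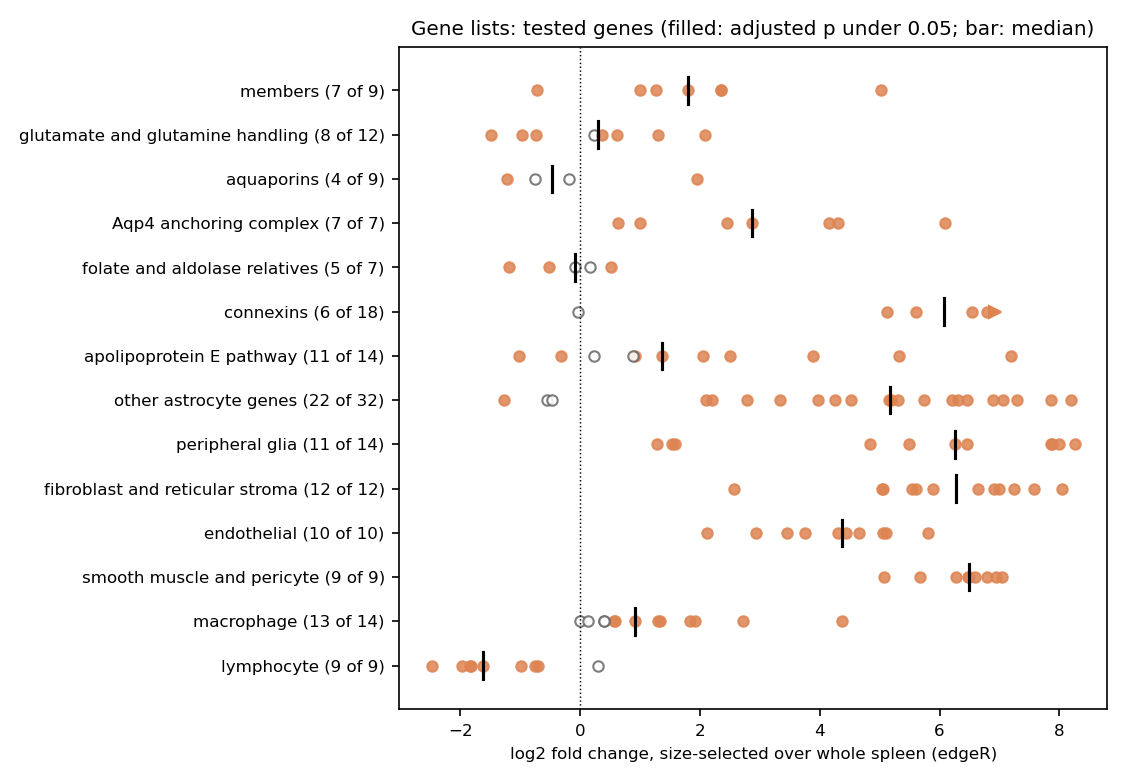
Log2 difference (size-selected over whole spleen, edgeR) of each tested gene of the lists named at the left, with the number tested of the number listed; filled circles were called, open ones not, vertical bars are medians, and the triangle is the lower bound of Gjc3. Gja1, at 5.02, was the only member above the endothelial median of 4.37.

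Markers of several cell types at once made up a larger share of the counts in the size-selected samples. Because CPM are shares, a rise of some markers cannot be told apart from a loss of others. All 11 tested of 14 peripheral glia markers were called higher (median log2 6.27), as were all 12 fibroblast and reticular stroma markers (6.27), all 10 endothelial markers (4.37) and all 8 mesothelial markers (5.94). Of 13 tested macrophage markers 9 were called higher, with a median of 0.92, and their summed level ran from 2674 to 7371 CPM against 1806 to 3122 CPM in whole spleen. Without number 460, Cd163 (edgeR adjusted p = 0.0726) and C1qa (edgeR adjusted p = 0.057) were not called. Of 9 lymphocyte markers 8 were lower and 1 was not called, and of 6 erythroid markers 3 were lower, or 2 with restored counts. With the number as a block all 6 erythroid markers were lower, and Cd4 (0.32), the remaining lymphocyte marker, and C1qb (0.36), a macrophage marker, were called higher. Of 9 genes of brain neurons and oligodendrocytes 3 were tested: Mag (1.72), a myelin gene of oligodendrocytes and Schwann cells, and Syt1 (4.71, with whole spleen counts in 436 alone), of neurons, were called higher and Gad1 (−0.76) lower. Gad1 was not called without number 460 (−0.65, edgeR adjusted p = 0.0512). Of the oligodendrocyte genes not tested, Mobp and Opalin were at 0 in every library, and Mog had counts in 2 size-selected libraries, up to 4, and in no whole spleen library. Apoe and Glul, the members shared with macrophages, moved by 0.99 and 1.26, next to the macrophage median of 0.92. Gja1, shared with stroma, moved by 5.02, between the endothelial and the fibroblast medians. Slc1a2, Aldh1l1 and Slc1a3 (1.79 to 2.36) lay above the macrophage median and below the endothelial, fibroblast and glia medians. The lists overlap in range, so these positions assign no member to a cell type: macrophage markers reached 4.37, and peripheral glia markers ran from 1.28 to 8.26. The part of any one cell type in these differences was not tested.

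The level of each member was next set against 6 marker scores, each the mean log2 CPM of a list, across the 8 samples of a fraction. Of the 84 pairs of member and score, none had a Benjamini-Hochberg adjusted p under 0.05 by Pearson's r (exact permutation of 40320 pairings, two-sided; smallest adjusted p = 0.146, 18 unadjusted p under 0.05). By Spearman's rho 2 pairs passed. Slc1a3 followed the smooth muscle and pericyte score in the size-selected samples, with r = 0.907 (exact permutation p = 0.00196, adjusted 0.146) and rho = 0.976 (p = 0.000397, adjusted 0.0333), and r was 0.933 without the 2 samples farthest from the median score. Apoe followed the macrophage score in whole spleen, with r = 0.821 (exact permutation p = 0.00868, adjusted 0.146) and rho = 0.952 (p = 0.00114, adjusted 0.0479), and r was 0.910 without 427 and 435, the 2 farthest samples.

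Against the peripheral glia score in the size-selected samples, r of the members ran from −0.226 (Aldh1l1) to 0.602 (Aldoc). None of these passed (Aldoc exact permutation p = 0.115, adjusted 0.260, rho = 0.786 with p = 0.0279, adjusted 0.168; r = 0.686 without 427 and 436). Without the same 2 samples r of the other 6 members was negative: −0.952 for Slc1a2, −0.798 for Aldh1l1, −0.701 for Gja1, −0.593 for Apoe, −0.284 for Slc1a3 and −0.223 for Glul. The positive values of Slc1a3, Glul, Gja1 and Apoe over all 8 samples thus did not hold without 427 and 436. These had the highest glia scores, 4.48 and 5.50, against 2.86 to 3.92 in the others. Leaving them out narrows the range of the score and leaves 6 samples, and the negative values were not tested. Correlations of over 0.5 in the size-selected samples were found for 2 members with the glia score, 5 with the fibroblast score, 5 with the macrophage score, 6 with the endothelial score, 5 with the smooth muscle and pericyte score and 0 with the mesothelial score. Of these 23 values, 15 were still over 0.5 without the 2 samples farthest from the median score. Of the 8 that were not, 4 were with the macrophage score, where Slc1a3 (0.134), Apoe (0.185), Glul (0.225) and Aldh1l1 (0.469) fell below it and only Slc1a2 (0.618) stayed above. The others were Slc1a3 (0.151) and Aldh1l1 (0.0502) with the endothelial score, Apoe (0.48) with the fibroblast score and Glul with the glia score. How many of all genes tested exceeded 0.5 with these scores was not counted, so the counts of members above 0.5 cannot be read as particular to them. The scores are not independent: fibroblast and smooth muscle scores had r = 0.819 with each other and macrophage and endothelial scores 0.713. In whole spleen r of Slc1a3 with the glia score was 0.816, and 0.435 without 427 and 460 (rho = 0.333; exact permutation p = 0.0352 and 0.428, adjusted 0.208 and 0.653).

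**Figure D4:**
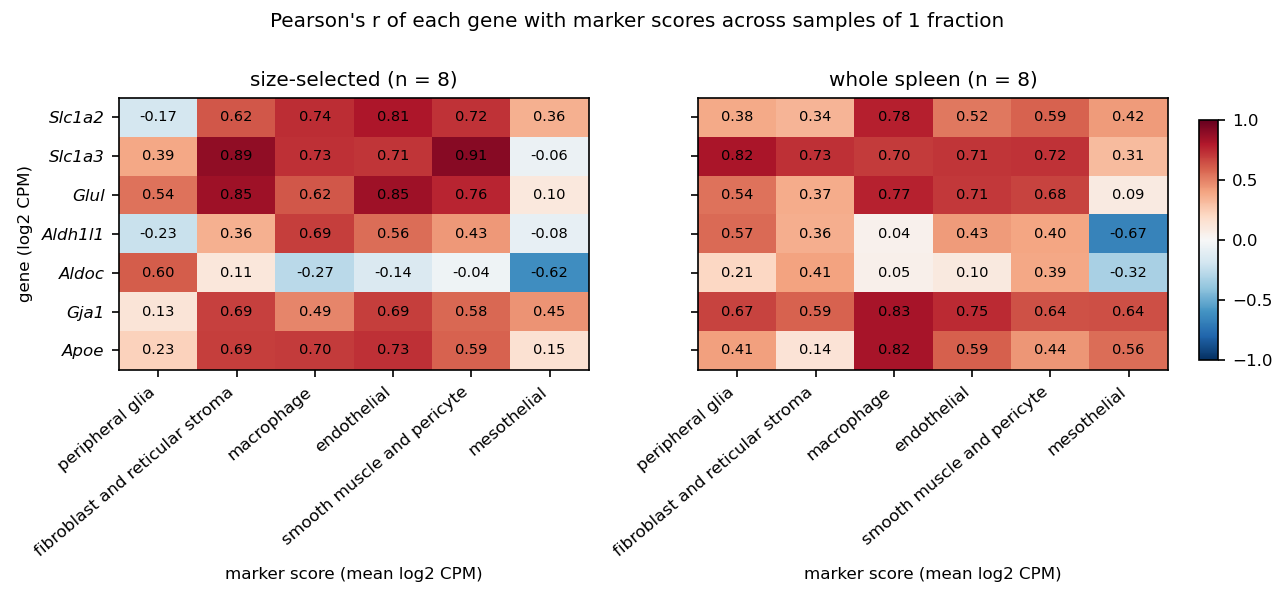
Pearson's r of log2 CPM of 7 members (vertical axis) with 6 marker scores (horizontal axis) across the 8 size-selected (left) and 8 whole spleen samples (right); red is positive and blue negative. In the size-selected samples Slc1a3 had its highest r with the smooth muscle and pericyte score (0.907), Glul had 0.850 with the endothelial and 0.848 with the fibroblast score, and all 7 members were at 0.602 or below with the glia score.

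Among themselves the members fell into loose company in the size-selected samples. As a description over 8 samples, r of log2 CPM was 0.899 for Gja1 and Apoe, 0.835 for Slc1a2 and Aldh1l1, and 0.809 for Slc1a3 and Glul. Aldoc ran against Gja1 (−0.625) and Apoe (−0.493). In whole spleen the pair Slc1a2 and Aldh1l1 was at −0.287. The genes most like each member, out of 10104 whose log2 CPM averaged 3 or more there, were Pwwp2b for Slc1a2 (r = 0.993), Dbn1 for Slc1a3 (0.976), Fam189a2 for Glul (0.983), Ggt5 for Aldh1l1 (0.985), Lrrc40 for Aldoc (0.97), Sntb2 for Gja1 (0.992) and Ccdc88a for Apoe (0.976). With 8 samples and so many genes, values this high are a ranking only. With restored counts Abhd12 (0.986) stood above Dbn1 (0.971) for Slc1a3, and Luzp1 (0.962) above Ccdc88a (0.951) for Apoe. Sntb2, which encodes a syntrophin, was higher after size selection (2.88), and Lrrc40 was not called (0.18).

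Levels can be compared between genes only per length, so counts were divided by the longest annotated transcript and scaled to the same sum in every sample, as TPM values are. In the size-selected samples the order was Apoe (3817 ± 1007, SD, n = 8), Gja1 (146.5 ± 41.9), Glul (130.1 ± 24.2), Slc1a3 (8.18 ± 2.38), Aldh1l1 (5.25 ± 1.54), Aldoc (4.72 ± 2.23) and Slc1a2 (1.29 ± 0.489), followed by Aqp4 (0.156 ± 0.163) and Gjb6 (0.0786 ± 0.125). Gja1 and Glul overlapped in range, as did Slc1a3, Aldh1l1 and Aldoc, and Aqp4 and Gjb6, so that the ranges do not separate these neighbours. Within a library, however, Slc1a3 was above Aldh1l1 in 7 of 8 size-selected samples (447 was the exception), Gja1 above Glul in 6, Aldh1l1 above Aldoc in 5 and Aqp4 above Gjb6 in 5. In whole spleen the order was Apoe (1515 ± 315.3), Glul (42.6 ± 5.82), Aldoc (6.02 ± 2.00), Gja1 (3.62 ± 2.15), Slc1a3 (1.89 ± 0.951), Aldh1l1 (0.824 ± 0.50), Slc1a2 (0.196 ± 0.0961), Aqp4 (0.0425 ± 0.0794) and Gjb6 (0). In whole spleen each neighbour from Aldoc down to Gjb6 overlapped the next in range, so that only Apoe and Glul stood clear of the member below them, though Slc1a3 was above Aldh1l1 within each of the 8 libraries, as Slc1a2 was above Aqp4. Gja1 thus lay below Glul in whole spleen and overlapped it in the size-selected samples. With restored counts the mean of Aldoc (5.33) passed that of Aldh1l1 (4.85) in the size-selected samples, but Aldoc was the higher in only 4 of 8 libraries.

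**Figure D5:**
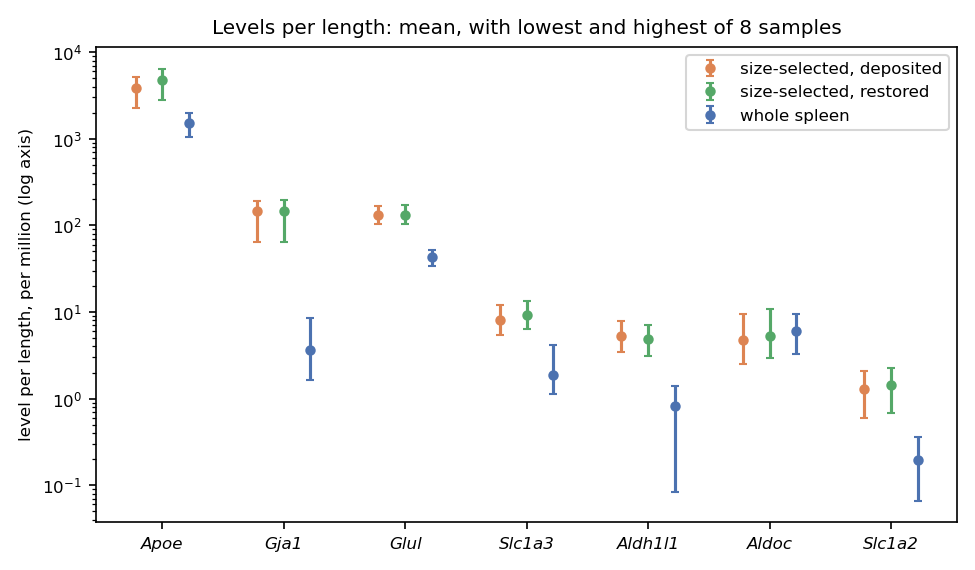
Level per length, on a scale like TPM, of the 7 members tested on a log axis, as the mean of 8 samples with a bar from the lowest to the highest sample, for size-selected samples (deposited and restored counts) and whole spleen. Gja1 stood at 146.5 against 3.62 in whole spleen, and Aldoc at 4.72 against 6.02.

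No member was called between the sexes, with 4 female and 4 male samples in each fraction. Over all genes 0.0397% were called in the size-selected samples and 0.194% in whole spleen by edgeR, and 0.0% for the interaction of sex and fraction (744 genes at an unadjusted p under 0.05, and 3 called by DESeq2). Aldoc came nearest: in whole spleen it ran from 5.03 to 8.16 CPM in the females and from 8.90 to 17.2 CPM in the males. These ranges did not overlap, but how many of all genes do the same was not counted. The Aldoc difference, female minus male, was −0.92 ± 0.24 (SE) on the log2 scale, with an edgeR adjusted p of 0.109. Without number 427 it was −1.06 and was called (adjusted p = 0.0391, edgeR), and without any other number it was not (edgeR adjusted p 0.14 to 0.319). DESeq2, which called 3.89% of all genes there, called it too (adjusted p = 0.0153). In the size-selected samples Aldoc differed by −0.69 ± 0.37 and Gja1 by 0.45 ± 0.25, neither called. With 1 number left out these ran from −1.05 to −0.33 and from 0.24 to 0.68. The interaction was 0.69 ± 0.71 for Aldh1l1 and 0.64 ± 0.53 for Gja1, with adjusted p of 1.00 in edgeR for both. It ran from 0.25 to 1.65 for Aldh1l1 and from 0.25 to 0.85 for Gja1 when 1 number was left out.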

How the data were processed

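RNA-seq of 8 size-selected and 8 whole spleen samples was analysed for 9 genes. Per the submitters' processing notes, which give no role or order, Trim Galore, STAR, RSEM and DESeq were used with the mm10 build. The deposited table holds the authors' estimated counts per gene. A second table, per the file headers, holds the authors' own comparison: a mean signal per gene, log2 fold changes with standard errors, a test score and p-values. It also holds the authors' deposited TPM and FPKM means per group; the FPKM values were not analysed here.

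The estimated counts were rounded before testing. edgeR 4.0.16 in R 4.3.3 was run with filterByExpr (minimum count 10), TMM and the quasi-likelihood F test. All 16 samples and the group as the only term gave the fraction comparison; sex was tested within each fraction, and its interaction with fraction over all 16. The standard error is the log2 difference over the square root of F. Benjamini-Hochberg adjustment ran over all genes tested, and calls have an adjusted p under 0.05. DESeq2 1.42.0 and limma 3.58.1 were alternatives, beside other filters and scalings, restored counts, the number as a block, and each number left out. Fits of Aqp4 and Gjb6 without the filter but with a block or restored counts, of the interaction without the filter, and of sex on restored counts, and bounds without the highest library, were added after seeing the data. The fraction, sex and interaction fits were tested on simulated data. Marker scores are means of log2 CPM (prior count 2).

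The numbers were taken to pair the samples, because after removal of group means the samples sharing a number correlated by 0.21 on average (0.12 to 0.38, over 0.1 in 8 of 8). Other pairs averaged −0.029, but removing group means largely fixes this value once the first is known, so it is no separate evidence. The constants (3 in each of 8 columns) were found from the values alone; whole spleen columns hold none. The authors' deposited TPM differed from counts per length by a median log2 of −0.576 for genes without a constant and −0.152 for genes with the middle and high constants, as deposited. Restored, these medians were −0.457 and −0.465.

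The genes named are the members, the genes of 7 related lists and 10 marker lists, and the closest genes by correlation over 8 size-selected samples. Some genes of these lists are not reported here by name. Members and lists were chosen with earlier results of these data known. Coordinates and lengths are from GENCODE M21 on GRCm38, promoter windows from RefSeq on GRCm38.p6.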

Additional observations from a re-analysis of the deposited data

Results flagged for a closer look

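Among 14 groups of 8 samples (7 members in each fraction), 2 held a sample far from the others; chance gives about 0.7. Slc1a3 in whole spleen 427 was the highest, at 3.32 log2 CPM (9.87 CPM, the others 2.81 to 4.88). Gja1 in size-selected 435 was the lowest, at 6.77 log2 CPM (109.1 CPM, the others 199.0 to 324.9). Size-selected 435 also had the lowest summed fibroblast markers of its group (1368 CPM) and follicular dendritic cell markers (2098 CPM), and the highest lymphocyte (2721 CPM) and erythroid markers (3513 CPM). Whole spleen 427 had the highest sums of its group for macrophage (3122 CPM), fibroblast (94.7 CPM), endothelial (272.0 CPM), smooth muscle and pericyte (85.9 CPM), follicular dendritic cell (927.7 CPM) and peripheral glia markers (26.0 CPM). Their part in these values was not tested.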

How the results depend on the processing

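No member tested changed direction in the alternatives of the fraction comparison. Aldoc lost its call in some, and with a minimum count of 50 Slc1a2 was not tested, leaving 6 members called. The replicate block, which pairs samples by number, called 10076 genes against 9855; it ended the call of Gjb6 in the fit without the filter and changed no other call of a member on deposited counts; on restored counts it made Aldoc called. Leaving out each number gave 9249 to 9823 genes, 6 to 7 members, and −0.85 to −0.65 for Aldoc, not called without 407, 408, 445 or 460. With library totals Aldoc was −0.58 (edgeR adjusted p = 0.0762), and the median log2 difference of all genes was 0.175 instead of 0.05. Counts of sex-dependent genes moved: in size-selected samples 6 became 22 with DESeq2, and in whole spleen 26 became 273 without the filter, 521 with DESeq2 and 7 to 261 when 1 number was left out; 0 members became 1 (Aldoc) with DESeq2 and 0 to 1 when a number was left out. The interaction went from 0 genes to 3 with DESeq2, 3 with the replicate block and 0 to 1 when a number was left out. Low counts limit Slc1a2, Aldh1l1, Aqp4 and Gjb6.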
